A study of Mus musculus with 4 samples.

Results

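The C/EBP transcription factors measured here were Cebpa, Cebpb, Cebpd and Cebpg, 4 of the 18193 genes that the platform annotation names. They were chosen by gene symbol, as all probe sets whose only annotated symbol was 1 of these 4, which gave 8 of the 45101 probe sets on each array: 1 for Cebpa, 2 each for Cebpb and Cebpd, and 3 for Cebpg. Where a gene had several, the brightest on average stands for it, and the others are given beside it. Cebpe was not analysed here. Progenitor cells were sorted from Trib1-/- and wild-type mice, all unstimulated and of a mixed C57BL6J/129SV background. The series had 1 array for each of Trib1-/- MDP, wild-type MDP, Trib1-/- GMP and wild-type GMP. GMP are granulocyte monocyte progenitors, which form granulocytes and monocytes, and MDP is the usual name of the progenitor of monocytes, macrophages and dendritic cells, although the labels give its cell type as macrophage dendritic cell. The sources used here give neither the age and number of the animals nor the sort gates or the deleted part of Trib1.

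C/EBP proteins bind DNA as dimers through a basic region and a leucine zipper, and take their name from CCAAT motifs and viral enhancers. In the myeloid lineage C/EBP alpha is needed to form GMP and drives granulocyte genes such as those of neutrophil elastase and the G-CSF receptor. C/EBP beta acts in macrophages and in granulocyte production under stress, C/EBP delta is induced in inflammation, and C/EBP gamma has no activation domain of its own and pairs with other family members and with ATF4. Trib1 encodes a pseudokinase that presents C/EBP alpha to the ubiquitin ligase COP1 for degradation. That step acts on protein, and the arrays measured RNA only.

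Each value is an RMA value on the log2 scale, and a difference of 1 is a 2-fold change. With 1 array per group there is no spread between replicates, so no test was made and each difference below has no replicate check. The precision is limited by having so few arrays. A spread could be had only between different probe sets for 1 gene, and its SD was 0.389 for the genotype difference in MDP, 0.382 in GMP, 0.430 for MDP minus GMP in Trib1-/- and 0.556 in wild type, over 4922 genes. Variation of animals, sorting and hybridisation is not part of it. A floor for weak signals was set at the median of all values, 3.29, and 11653 genes reached it on at least 1 array. In bulk RNA, fewer cells that express a gene and less RNA per cell cannot be told apart.

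The array medians lay between 3.27 and 3.31. The probe sets of the targeted gene did not check the labels. The 2 of Trib1 differed by -0.43 and -0.41 between the genotypes in MDP and by 0.15 and 0.34 in GMP, so Trib1-/- below is the array so labelled. The cell labels were set against marker genes. All 5 granulocyte progenitor markers (Elane, Mpo, Prtn3, Ctsg and Ms4a3) differed by 2-fold or more in both genotypes, with MDP below GMP. Of all genes, 4.08% in Trib1-/- and 12.4% in wild type were at least 2-fold lower in MDP. The 5 monocyte and macrophage markers measured were all above 0. Of these, 2 in Trib1-/- and 3 in wild type were 2-fold higher, beside 2.75% and 4.16% of all genes, with medians of 0.30 and 1.24. Csf1r, the receptor that marks the monocyte lineage, was 3.49-fold higher in Trib1-/- MDP and 3.54-fold higher in wild-type MDP. Its other probe sets gave log2 differences down to 0.996 and 0.993. The 4 stem and early progenitor markers were mixed, with MDP minus GMP of -2.69 in Trib1-/- and -3.58 in wild type for Kit, the stem cell factor receptor gene, which was below the floor on both MDP arrays. Cd34 gave -0.69 and -1.35, Sox4 gave 0.86 and -0.13, and Flt3, a cytokine receptor gene of early and dendritic progenitors, gave 2.84 and 1.90.

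Promoters are shown for the member with the largest wild-type difference between the cell types, for the member that lies near it on the same chromosome, and for the granulocytic target with the largest wild-type difference. Each runs from 250 bases before to 50 bases after the RefSeq gene start of GRCm38.p6. Capitals mark matches to 3 motifs, searched on both strands: TTGCG, the core of many C/EBP sites, whose other strand reads CGCAA, the looser C/EBP pattern TTNNGNAA, whose other strand reads TTNCNNAA, and CCAAT, whose other strand reads ATTGG. Cebpa lies at chr7:35119043-35119342 on the plus strand, Cebpg at chr7:35056517-35056816 on the minus strand, and Ms4a3 at chr19:11640802-11641101 on the minus strand.
Cebpa: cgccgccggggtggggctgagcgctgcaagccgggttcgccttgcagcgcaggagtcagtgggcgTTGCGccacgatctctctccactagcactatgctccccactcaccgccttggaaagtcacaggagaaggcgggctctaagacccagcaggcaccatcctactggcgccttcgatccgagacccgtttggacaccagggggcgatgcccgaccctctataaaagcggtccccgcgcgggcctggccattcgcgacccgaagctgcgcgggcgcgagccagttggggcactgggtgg
Cebpg: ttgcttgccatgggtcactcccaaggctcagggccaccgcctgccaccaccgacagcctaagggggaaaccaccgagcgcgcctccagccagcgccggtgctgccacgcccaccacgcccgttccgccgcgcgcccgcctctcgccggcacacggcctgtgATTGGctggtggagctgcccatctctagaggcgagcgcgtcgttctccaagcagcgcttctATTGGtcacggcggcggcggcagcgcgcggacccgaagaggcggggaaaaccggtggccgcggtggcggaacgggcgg
Ms4a3: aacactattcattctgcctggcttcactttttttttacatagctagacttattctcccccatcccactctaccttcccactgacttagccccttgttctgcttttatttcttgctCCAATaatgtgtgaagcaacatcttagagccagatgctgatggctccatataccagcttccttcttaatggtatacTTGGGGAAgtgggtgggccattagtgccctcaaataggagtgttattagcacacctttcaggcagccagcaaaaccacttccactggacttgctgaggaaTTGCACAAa
The Cebpa window held 1 TTGCG, from -185 to -181 relative to the start, a motif found in 17.4% of 32851 promoters. The Cebpg window held 2 CCAAT motifs on the reverse strand, at -89 to -85 and -28 to -24, and CCAAT was found in 37.4% of promoters. The Ms4a3 window held 2 matches to TTNNGNAA, at -59 to -52 and 42 to 49, and 1 CCAAT at -135 to -131, and TTNNGNAA was found in 40.7% of promoters. No 2 of these matches overlapped. The Cebpb window held none of the 3 motifs, and Cebpd is named only. A match is a description of the letters, not of a bound site. Cebpa and Cebpg, transcribed away from each other on chromosome 7, differed in how their RNA varied over the arrays, as described next.

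Cebpa, which encodes the factor that sets up GMP, was lower in MDP than in GMP in both genotypes. Its only probe set, 1418982_at, read 6.91 in Trib1-/- MDP, 6.89 in wild-type MDP, 7.90 in Trib1-/- GMP and 8.54 in wild-type GMP. Both GMP arrays were above both MDP arrays, and wild-type GMP was the highest. All 4 values were above the 75th percentile of all values, 4.78. Cebpa was 1.98-fold lower in MDP than in GMP in Trib1-/- (-0.99) and 3.12-fold lower in wild type (-1.64). Differences larger in size were seen for 7.08% of genes in Trib1-/- and for 3.68% in wild type. Between genotypes, Cebpa differed by -0.64 in GMP, that is 1.56-fold lower in Trib1-/-, and 14.9% of genes differed by more. In MDP the genotypes differed by 0.016, or by -0.07 after cyclic loess, and 96.5% of genes differed by more than the first of these values. The gap between the cell types was thus smaller in Trib1-/- by 0.66, most of it the -0.64 between the GMP arrays, and 27.8% of genes changed by more in either direction.

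**Figure D1:**
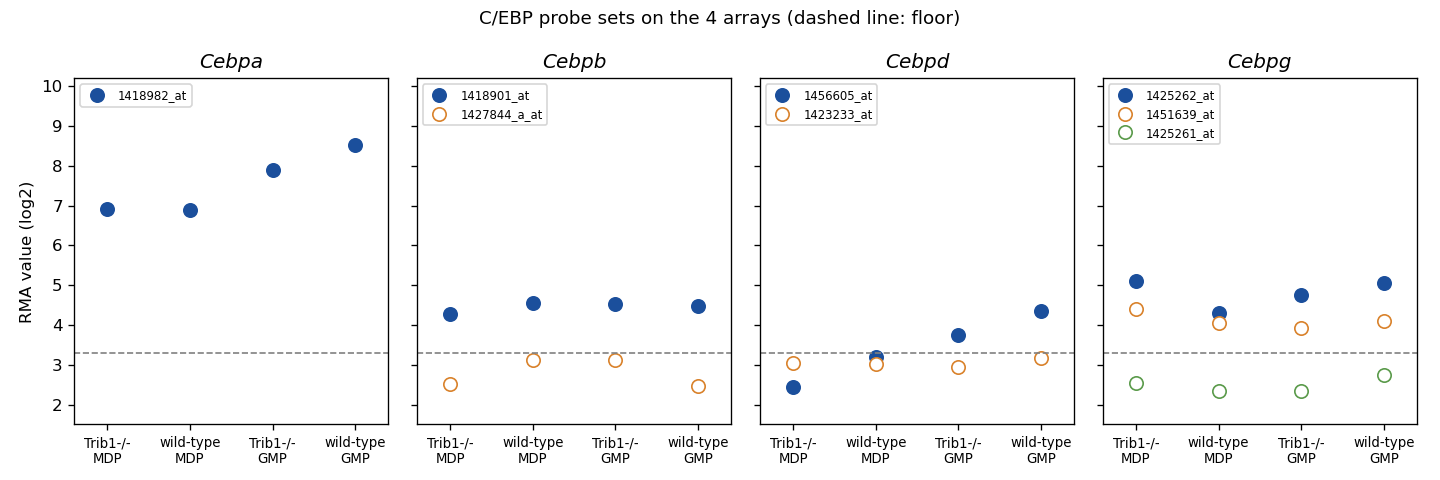
RMA values (log2, vertical axis) of all 8 C/EBP probe sets on the 4 arrays, with 1 panel per gene, filled points for the probe set that represents the gene, open points for the others and a dashed line at the floor of 3.29. Cebpa lies well above the floor and is highest in wild-type GMP (8.54), Cebpb is nearly level, 3 probe sets lie below the line on every array, and the main probe set of Cebpd does so on both MDP arrays.

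Cebpb, whose product acts in macrophage activation and in stress granulopoiesis, was nearly level over the arrays. Its main probe set, 1418901_at, read 4.27 in Trib1-/- MDP, 4.57 in wild-type MDP, 4.53 in Trib1-/- GMP and 4.48 in wild-type GMP, a span of 0.30. Trib1-/- MDP was the lowest, and the other 3 arrays lay close together, between 4.48 and 4.57. The genotype differences were -0.30 in MDP and 0.052 in GMP, and MDP minus GMP was -0.26 in Trib1-/- and 0.087 in wild type. All 4 are smaller than the SD between probe sets. The other probe set, 1427844_a_at, was below the floor on every array, at 2.52 in Trib1-/- MDP, 3.12 in wild-type MDP, 3.13 in Trib1-/- GMP and 2.47 in wild-type GMP. It had the same signs as the main probe set in all 4 differences, with values between -0.61 and 0.67.

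Cebpd, an inflammation-induced member, was weak, and its probe sets did not give 1 picture. The main probe set, 1456605_at, read 2.45 in Trib1-/- MDP, 3.19 in wild-type MDP, 3.76 in Trib1-/- GMP and 4.36 in wild-type GMP. Both MDP values were below the floor and both GMP values above it. MDP was 2.47-fold lower than GMP in Trib1-/- (-1.31) and 2.24-fold lower in wild type (-1.16). When weaker values were set to the floor, these differences were -0.47 and -1.07. The second probe set, 1423233_at, lay between 2.93 and 3.16 on all 4 arrays, below the floor, with MDP minus GMP of 0.11 in Trib1-/- and -0.14 in wild type. The genotype differences of the main probe set were -0.74 in MDP, which was 0.0 once raised to the floor, and -0.60 in GMP, against 0.03 and -0.22 for the second probe set.

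Cebpg, the partner subunit without an activation domain, had its largest difference between the MDP genotypes. The main probe set, 1425262_at, read 5.11 in Trib1-/- MDP, 4.31 in wild-type MDP, 4.76 in Trib1-/- GMP and 5.06 in wild-type GMP. Wild-type MDP was the lowest, and Trib1-/- MDP and wild-type GMP were the highest and within 0.05 of each other. Trib1-/- MDP was 1.74-fold above wild-type MDP (0.80), and 6.24% of genes differed by more. In GMP the genotype difference was -0.30. The second probe set, 1451639_at, read 4.40 in Trib1-/- MDP, 4.06 in wild-type MDP, 3.94 in Trib1-/- GMP and 4.09 in wild-type GMP, with genotype differences of 0.34 in MDP and -0.16 in GMP. The third, 1425261_at, was below the floor on every array, with 0.22 and -0.40. All 3 thus had a positive genotype difference in MDP and a negative one in GMP, but the probe sets share the same RNA and are not replicates, and 2 of the 3 MDP differences were smaller than the SD between probe sets. MDP minus GMP was 0.35 in Trib1-/- and -0.75 in wild type, a change of 1.10 with genotype, and 7.4% of genes changed by more. The change was 0.49 and 0.62 for the other probe sets.

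Between the cell types, 1 of the 4 C/EBP genes was at least 2-fold lower in MDP in Trib1-/-, where 4.08% of 11653 genes were lower and 6.82% apart in either direction. In wild type 2 of 4 were lower, where 12.4% of genes were lower and 16.6% apart in either direction. These were Cebpd in both genotypes and Cebpa in wild type. Both MDP values of Cebpd were below the floor. Once raised, Cebpd was at -0.47 in Trib1-/-, which left 0 members called there, and at -1.07 in wild type. Its other probe set gave 0.11 and -0.14. Cebpa in Trib1-/- (-0.99) lay just short of the 2-fold size. No member was 2-fold higher in MDP, where 2.75% of genes were in Trib1-/- and 4.16% in wild type. The median over the 4 genes was -0.62 in Trib1-/- and -0.96 in wild type, beside -0.01 and -0.04 over all genes. The comparisons between cell types share arrays with those between genotypes and are not independent of them.

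Between the genotypes, none of the 4 genes was 2-fold apart in MDP, where 2.63% of genes were (1.1% higher and 1.53% lower), or in GMP, where 3.64% were. The median was -0.14 in MDP and -0.45 in GMP, beside 0.01 and -0.06 over all genes. In GMP, 3 of the 4 were below 0, as were 55.2% of all genes. The GMP arrays differed more widely than the median shows: of all genes, 3.16% were at least 2-fold lower in Trib1-/- GMP and 0.481% at least 2-fold higher. Over the 6925 genes that reached the 75th percentile the median was -0.10. The hybridisation controls BioB and BioC, bacterial transcripts added to each sample, read 0.37 higher on the Trib1-/- GMP array than on the wild-type GMP array and 0.13 lower on the Trib1-/- MDP array than on the wild-type MDP array. Between cell types they read higher in MDP, by 0.16 in Trib1-/- and 0.66 in wild type. Their part in the Cebpa differences was not tested.

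**Figure D2:**
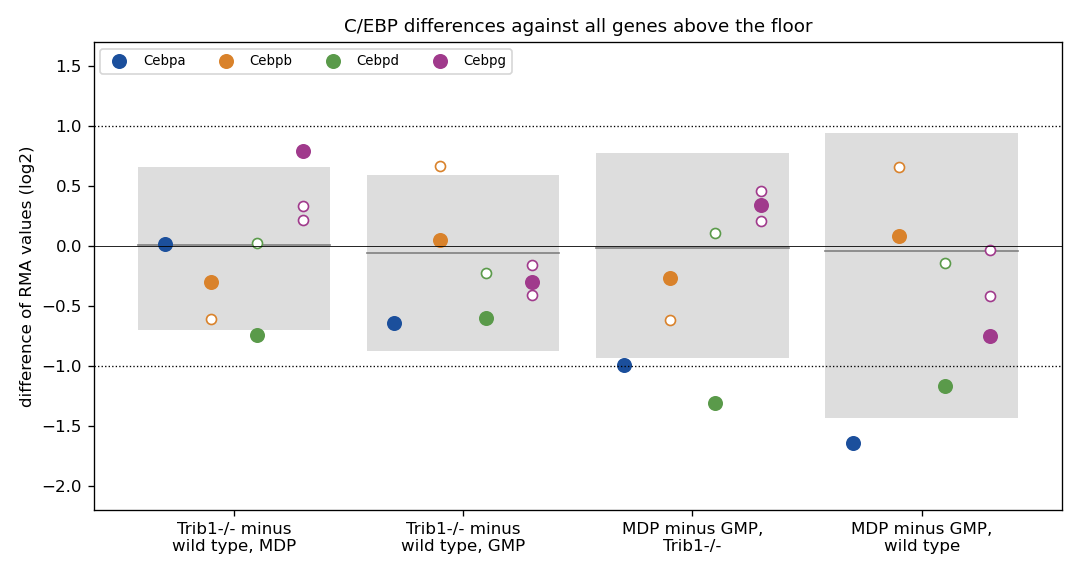
Differences of RMA values (log2, vertical axis) of the C/EBP probe sets in the 4 comparisons, with filled points for the main probe sets, open points for the others, a grey band for the middle 90% of all 11653 genes and a line at their median. Dotted lines mark the 2-fold size. Cebpa lies below the band in both MDP minus GMP comparisons (-0.99 in Trib1-/- and -1.64 in wild type), as Cebpd does in Trib1-/- (-1.31), and for the MDP genotypes Cebpg lies above it (0.80) and Cebpd, with both values under the floor, below it (-0.74).

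Markers of other cells moved with the genotype on these arrays. The resident macrophage markers had 6 of 8 members above the floor, and their mean level was 3.45 in Trib1-/- MDP and 5.76 in wild-type MDP. All 6 were at least 2-fold lower in Trib1-/- MDP, beside 1.53% of all genes. However, C1qb, a complement gene, reached the floor only in wild-type MDP, so it had to be lower, and it differed by -0.98 once raised. Another probe set of Spic differed by -0.02. The basophil and mast cell markers had 5 of 6 members above the floor, with a mean level of 4.36 in Trib1-/- GMP and 5.73 in wild-type GMP, and 3 of the 5 were at least 2-fold lower. The eosinophil markers averaged 4.49 in Trib1-/- GMP and 5.26 in wild-type GMP, with 2 of 4 at least 2-fold lower, Prg2 and Siglecf. Siglecf reached the floor only in wild-type GMP and so had to be lower in Trib1-/- GMP (-1.54, or -1.36 once raised). Of all genes, 3.16% were at least 2-fold lower in Trib1-/- GMP. The 4 stem and early progenitor markers were all above 0 between the MDP genotypes (median 0.42), where 48.5% of all genes were below 0. All 4 were below 0 between the GMP genotypes (median -0.41), as were 55.2% of all genes. These were the signs that Cebpg had. Once raised to the floor, Kit was at 0.0 in MDP and Flt3 at 0.0 in GMP. The 5 probe sets of Sox4 ran from -0.44 to 0.49 in MDP and from -0.50 to 0.38 in GMP. Of the 5 granulocyte progenitor markers, 4 were below 0 between the GMP genotypes, with a median of -0.54 beside Cebpa at -0.64. No marker was listed at 0, while C1qa and C1qc, complement genes of macrophages, were below the floor on all arrays. The 3 erythroid markers measured were also below the floor on all arrays. The part of these cells in the C/EBP values was not tested.

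Most of the genes known to be driven by C/EBP alpha and C/EBP epsilon in granulocytes were lower in MDP than in GMP, as Cebpa was. Of 18 listed genes, 17 were measured and 15 reached the floor, 10 of them on every array. Of the 15, 10 were at least 2-fold lower in MDP in Trib1-/- and 9 in wild type, beside 4.08% and 12.4% of all genes, and none was 2-fold higher. The counts were also 10 and 9 over all 17 measured genes. A gene that passes the floor only through its GMP values has to be lower in MDP, so these counts describe the list and support nothing. The median was -1.54 in Trib1-/- and -1.87 in wild type, beside -0.01 and -0.04 over all genes.

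The largest differences were in primary granule and early granulocyte genes. Ms4a3, a membrane protein gene of granulocyte monocyte progenitors, read 4.11 in Trib1-/- MDP, 3.59 in wild-type MDP, 9.23 in Trib1-/- GMP and 9.73 in wild-type GMP. Elane, the neutrophil elastase gene, read 3.50 in Trib1-/- MDP, 4.24 in wild-type MDP, 9.03 in Trib1-/- GMP and 9.57 in wild-type GMP. For both genes the GMP arrays lay far above the MDP arrays, and Elane was 46.2-fold lower in MDP than in GMP in Trib1-/-. Gfi1, a repressor of the monocyte programme, was 20.8-fold lower in Trib1-/- and 24.2-fold lower in wild type, with both MDP values below the floor, and once raised the differences were -2.79 and -3.45. The granule protease genes Ctsg (-2.99 in Trib1-/- and -3.43 in wild type) and Prtn3 (-2.38 and -2.98), and Mpo, which encodes myeloperoxidase (-2.06 and -1.87), were lower as well.

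Later or milder targets were mixed. Hp, the haptoglobin gene, differed between MDP and GMP by -1.54 in Trib1-/- and -2.61 in wild type, and S100a8 and S100a9, calgranulin genes, by -1.497 and -1.16 in Trib1-/- and by -2.00 and -1.31 in wild type. Both MDP values of S100a8 were below the floor, and raised to it the differences were -0.24 and -1.22. Csf3r, the G-CSF receptor gene and a direct C/EBP alpha target, read 2.82 in Trib1-/- MDP, 3.34 in wild-type MDP, 4.55 in Trib1-/- GMP and 4.25 in wild-type GMP. It was 2-fold lower in Trib1-/- only (-1.73, or -1.26 once raised), with -0.91 in wild type, a difference between genotypes that was not tested. Il6ra, an interleukin 6 receptor gene and also a known target, had a positive difference, 0.42 in Trib1-/- and 0.86 in wild type. The secondary granule genes Ltf, Camp and Ngp lay between -0.22 and 0.19 in both. Their signal was weak on all arrays, with 4.35 for Camp in Trib1-/- MDP the highest value, and Ngp was below the floor on 2 arrays. Lcn2 and Mmp8, also listed, were below the floor on every array.

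**Figure D3:**
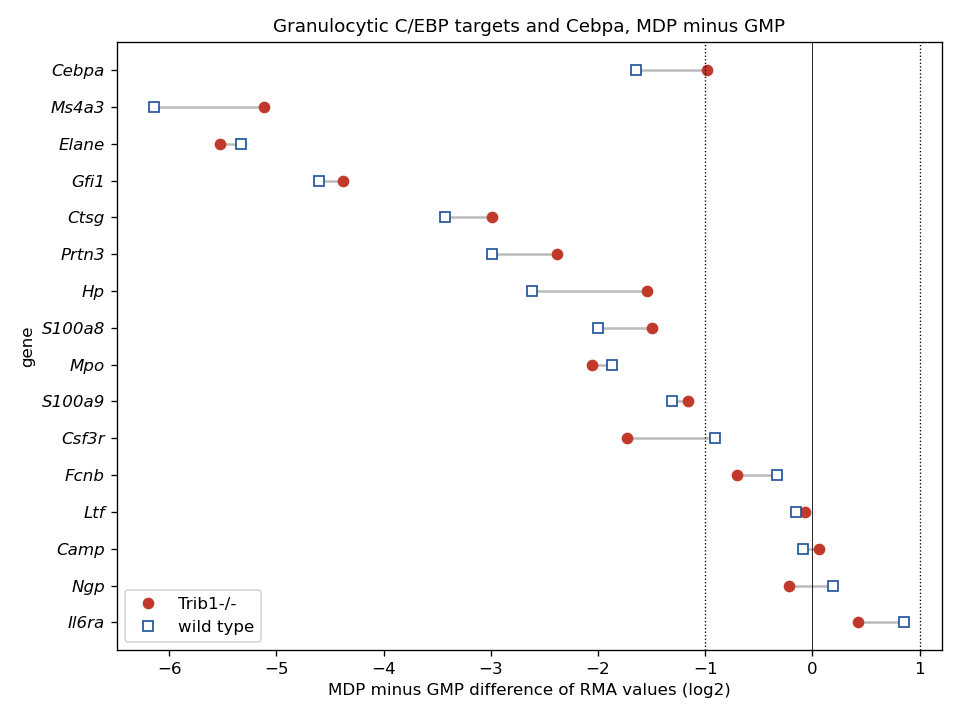
MDP minus GMP differences of RMA values (log2, horizontal axis) for the 15 granulocytic C/EBP targets above the floor and for Cebpa at the top, with filled circles for Trib1-/-, open squares for wild type and dotted lines at the 2-fold size. Ms4a3 (-6.14 in wild type) and Elane (-5.53 in Trib1-/-) have the most negative values, and Il6ra is the gene farthest above 0.

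Between genotypes no granulocytic target was 2-fold apart in MDP or in GMP, beside 2.63% and 3.64% of all genes, and none was so among all 17 measured genes. The medians were -0.11 in MDP (0.0 once raised) and -0.11 in GMP (-0.10 once raised), beside 0.01 and -0.06 over all genes. In each, 10 of 15 were below 0, beside 48.5% of all genes in MDP and 55.2% in GMP. In GMP the largest were S100a8 (-0.98), Hp (-0.79), Gfi1 (-0.66) and Prtn3 (-0.60), beside Cebpa at -0.64. In MDP they were Elane (-0.74), Csf3r (-0.53, or -0.06 once raised), Ms4a3 (0.52) and Ngp (-0.52), beside Cebpa at 0.016.

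Monocytic and inflammatory C/EBP targets, genes that C/EBP beta or alpha can drive in monocytes and macrophages, had 10 of 15 measured members above the floor. Their median of MDP minus GMP was 0.79 in Trib1-/- and 0.16 in wild type, beside -0.01 and -0.04 over all genes. The medians were 0.50 and 0.05 once raised, and 0.39 and 0.17 with no floor, in the same order. In Trib1-/-, 4 of 10 were at least 2-fold higher, beside 2.75% of all genes: Csf1r (1.80), Nr4a1, which encodes an orphan nuclear receptor of patrolling monocytes (1.61, or 0.54 once raised), Il1b, the interleukin 1 beta gene (1.21), and the chemokine gene Ccl3 (1.10). In wild type, 2 of 10 were, beside 4.16% of all genes: Csf1r (1.82) and Cd14, the lipopolysaccharide co-receptor gene (1.14, or 0.45 once raised). Other probe sets of Csf1r gave lower differences, down to 0.996 in Trib1-/- and 0.993 in wild type. Clec4e, the gene of the receptor Mincle, was 2-fold lower in both, with -1.24 in Trib1-/- and -1.78 in wild type. Both its MDP values were below the floor, and once raised the differences were -0.14 and -0.73. Nr4a1 and Arg1, another listed gene, reached the floor only in Trib1-/- MDP, Cd14 only in MDP and Clec4e only in GMP. Such genes have to be higher there, so the medians and counts describe the list and support nothing.

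Between genotypes, Il1rn, the gene of the interleukin 1 receptor antagonist, was the only one of these at least 2-fold apart in MDP, beside 2.63% of all genes. It read 4.82 in Trib1-/- MDP, 3.81 in wild-type MDP, 4.13 in Trib1-/- GMP and 3.89 in wild-type GMP, with Trib1-/- MDP the highest (1.01). In GMP, Ccl3 alone was 2-fold apart, beside 3.64% of all genes, with 5.24 in Trib1-/- GMP against 6.41 in wild-type GMP (-1.17).

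The bZIP partners and relatives of the C/EBPs, the leucine zipper proteins with which they pair or share sites, had 12 of 17 measured members above the floor. None was 2-fold apart between genotypes, beside 2.63% of all genes in MDP and 3.64% in GMP. In MDP, 11 of the 12 were below 0, beside 48.5% of all genes, with a median of -0.26 beside 0.01 over all genes. For 5 of the 11 another probe set was above 0, with 0.03 for Ddit3, 0.04 for Atf4, 0.05 for Jun, 0.43 for Jund and 0.05 for Hlf, and the median was -0.11 with probe sets averaged. The largest were Maf (-0.59), Atf4 (-0.56), Batf3 (-0.44) and Atf3 (-0.32). In GMP the median was -0.09, or 0.01 with each array centred, with Fos (-0.84), Fosb (-0.72), Atf4 (-0.62) and Tef (-0.55) the largest. The second probe set of Atf4 gave 0.04 in both cell types, and that of Tef gave 0.35 in GMP.

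Atf4, the stress-response factor that pairs with C/EBP gamma, was the only one of these at least 2-fold lower in MDP. Of all genes, 4.08% in Trib1-/- and 12.4% in wild type were. Atf4 read 5.11 in Trib1-/- MDP, 5.67 in wild-type MDP, 6.13 in Trib1-/- GMP and 6.75 in wild-type GMP. The GMP arrays were above the MDP arrays, by 1.01 in Trib1-/- and 1.08 in wild type, and the second probe set gave differences of -0.81 and -0.80. Cebpg did not follow it, with 0.35 and -0.75. Ddit3, the C/EBP homologous protein CHOP, lay between 5.50 and 5.99 on all arrays. The immediate early genes Fos and Fosb were 2-fold higher in MDP in Trib1-/- (1.21 and 1.30), with 0.66 and 0.71 in wild type. Of all genes, 2.75% in Trib1-/- and 4.16% in wild type were 2-fold higher in MDP.

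Among 15 regulators and antagonists of C/EBPs, 14 reached the floor, all of them on every array. In GMP, 11 of the 14 were below 0 between genotypes, beside 55.2% of all genes, and none was 2-fold apart, beside 3.64%. Their median was -0.43 beside -0.06 over all genes, but -0.18 with the floor at the 75th percentile or without several-transcript probe sets, -0.19 with 32 added to linear values and -0.30 with probe sets averaged. The largest were E2f1, the cell cycle factor that C/EBP alpha restrains (-0.92), Gata2 (-0.91), Myc, which opposes C/EBP alpha (-0.78), and Irf8, the monocyte factor that holds back C/EBP alpha (-0.70). Of 3 probe sets of E2f1, 1 gave 0.09. In MDP the median was 0.07, or -0.04 with that higher floor, with no floor or without several-transcript probe sets, and -0.01 after cyclic loess, so that it had no direction. Tal1, a stem and erythroid factor, was 2-fold lower, beside 1.53% of all genes, with 4.62 in Trib1-/- MDP against 5.79 in wild-type MDP (-1.18).

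Irf8 was the one regulator at least 2-fold higher in MDP than in GMP, beside 2.75% (Trib1-/-) and 4.16% (wild type) of all genes. It read 7.77 in Trib1-/- MDP, 7.81 in wild-type MDP, 4.81 in Trib1-/- GMP and 5.51 in wild-type GMP. Its MDP values were alike in the 2 genotypes and lay above the GMP values, by 2.96 in Trib1-/- and 2.31 in wild type, where Cebpa had -0.99 and -1.64. Gata2 (-1.66 in Trib1-/- and -2.12 in wild type) and Myc (-1.49 and -2.10) were 2-fold lower in both, and Calr, which encodes calreticulin, a binder of Cebpa mRNA, in wild type (-1.10, with -0.66 in Trib1-/-). That was 2 of 14 in Trib1-/- and 3 of 14 in wild type, beside 4.08% and 12.4% of all genes. Spi1, the gene of PU.1, and Runx1, which encodes a factor that binds the Cebpa enhancer, were less than 2-fold apart in all 4 comparisons.

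Of the genes of the Trib1 and COP1 route that acts on C/EBP proteins, 8 of 10 measured reached the floor. Cop1, the ligase gene, read 8.04 in Trib1-/- MDP, 7.83 in wild-type MDP, 7.76 in Trib1-/- GMP and 7.36 in wild-type GMP, so that the genotype difference was 0.21 in MDP and 0.40 in GMP. The ligase scaffold gene Cul4a (-1.10) and Trib2 (1.18, or 0.38 once raised) were 2-fold apart between the GMP genotypes, beside 3.64% of all genes. No gene of the list was 2-fold apart between the MDP genotypes, beside 2.63% of all genes. Between cell types none was in Trib1-/-, while in wild type Cul4a was lower in MDP (-1.67) and 1 of the 2 probe sets of Trib1 was higher (1.04).

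**Figure D4:**
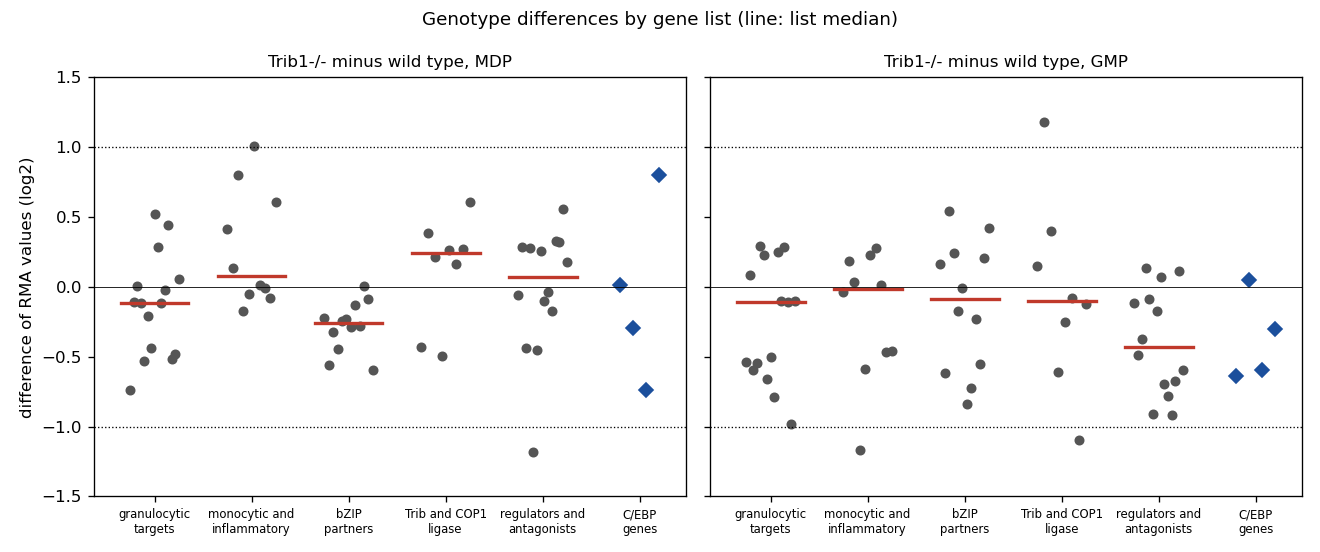
Trib1-/- minus wild-type differences of RMA values (log2, vertical axis) in MDP (left) and GMP (right) for the genes of 5 lists above the floor (grey points, with a red line at each list's median) and for the 4 C/EBP genes (blue diamonds). Dotted lines mark the 2-fold size, which no C/EBP gene reaches, and the regulators and antagonists have a median of -0.43 in GMP, which was -0.18 with the floor at the 75th percentile.

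The genes whose values over the 4 arrays lay closest to those of a C/EBP gene were found for the 2 members that spanned at least 1, as the root mean square distance over the 4 arrays after each gene was centred on its own mean. For Cebpa they were Cct5 (0.02) and Cct3 (0.04), which encode subunits of a cytosolic chaperonin, and Eci2 (0.04), an enzyme of fatty acid oxidation. Cct5 read 5.55 in Trib1-/- MDP, 5.60 in wild-type MDP, 6.54 in Trib1-/- GMP and 7.21 in wild-type GMP, the same order as Cebpa except within MDP. For Cebpd they were Rps3, a ribosomal protein gene (0.04), Man2b1, a lysosomal mannosidase gene (0.04), and Aldh2, an aldehyde dehydrogenase gene (0.05). Within a distance of 0.1 there were 37 genes for Cebpa and 10 for Cebpd.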

How the data were processed

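RNA of sorted GMP and MDP from Trib1-/- and wild-type mice was extracted with Trizol, amplified and biotin-labelled with the NuGEN Ovation system and hybridised to Affymetrix arrays, per the labels' protocols. The authors deposited 1 column of values per array made with RMA, per the submitters' processing notes, and these are taken as log2 from their range (0.14 to 14.5), since the file states no scale. RMA corrects background and makes array distributions alike, so a change in total RNA per cell cannot be seen and weak signals are compressed. The sources used here give no RMA version.

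The 64 control probe sets were left out of the gene counts, and 34945 probe sets with 1 symbol were used. Differences were formed in Python 3.11.15 with pandas 2.3.3, cyclic loess (3 iterations) came from limma 3.58.1, and the counting was tested on simulated data. Genes were counted at 2-fold. Tried besides were dropping the floor, setting it at the 75th percentile, values raised to the floor, the mean of probe sets, no several-transcript probe sets, cyclic loess, centring, 32 added to linear values, and 1.5-fold and 4-fold rules. The members and lists were chosen with earlier results of these data known. Named were all C/EBP probe sets, list members 2-fold apart or otherwise the 4 largest, and the 3 genes nearest in pattern. Others, such as Il6ra, Ltf, Camp, Ngp, Ddit3, Jun, Jund, Hlf, Spi1, Runx1 and Cop1, and single marker genes were named after their values were seen. Promoters came from RefSeq (GRCm38.p6), which was not used for the arrays.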

Additional observations from a re-analysis of the deposited data

Results flagged for a closer look

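With 1 array per group, a gene is listed here where its difference went opposite ways under the same contrast in the 2 cell types or the 2 genotypes. These opposite directions were not tested. For Trib1-/- minus wild type, Cebpa differed by 0.016 in MDP and by -0.64 in GMP, Cebpb by -0.30 in MDP and by 0.052 in GMP, and Cebpg by 0.80 in MDP and by -0.30 in GMP. For MDP minus GMP, Cebpb differed by -0.26 in Trib1-/- and by 0.087 in wild type, and Cebpg by 0.35 in Trib1-/- and by -0.75 in wild type. The value of Cebpa in MDP and both positive values of Cebpb lie close to 0. Those of Cebpg had the same signs in all 3 of its probe sets, as those of Cebpb had in both of its own. However, MDP minus GMP in wild type was only -0.03 for the second Cebpg probe set. The third Cebpg probe set was below the floor on every array, and its differences were 0.0 once raised.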

How the results depend on the processing

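No paired analysis was possible because the labels carry no replicate numbers and each group has 1 array. No call of a C/EBP gene changed sign. Of 310 recomputed differences and list medians, 292 moved by less than the SD between probe sets. The 292 include values that an alternative could not change by construction. Cebpa stayed within that SD under every alternative run for it, but only cyclic loess, centring and 32 added could move it. Its only probe set is not a several-transcript one and lay above the 75th percentile on every array. Cyclic loess and centring moved no C/EBP value by more than that SD. Centring shifted every gene by 0.10 for the GMP genotypes and by 0.13 for MDP minus GMP in wild type, and the share of 2-fold genes that were lower was then 69.3% and 58.6%, in place of 86.8% and 74.9%. With 32 added it was 100% of only 3 genes for the MDP genotypes, in place of 58.2% of 306. For MDP minus GMP in wild type it was 87.0% of 368 genes, in place of 74.9% of 1930.

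With the floor at the 75th percentile, Cebpb and Cebpd dropped out, and 0 members in Trib1-/- and 1 in wild type were 2-fold apart between cell types. Genes 2-fold apart numbered 117 for the MDP genotypes, in place of 306, and 263 for the GMP genotypes, in place of 424. The granulocytic target medians, over fewer genes, were -2.38 (Trib1-/-) and -2.98 (wild type) for MDP minus GMP and -0.54 for the GMP genotypes. The wild-type median was -1.31 with no floor and also with values raised.

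With values raised to the floor, Cebpd was at 0.0 for the MDP genotypes and -0.47 for MDP minus GMP in Trib1-/-, its change with genotype was 0.60, 0 members were 2-fold apart between cell types in Trib1-/-, and 142 genes were for the MDP genotypes. With probe sets averaged, Cebpd was at -0.60 in Trib1-/-, 0 members (Trib1-/-) and 1 (wild type) were 2-fold apart between cell types, and 184 genes (MDP genotypes), 279 (GMP genotypes), 501 (Trib1-/- cell types, in place of 795) and 1228 (wild-type cell types, in place of 1930) were.

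With 32 added to linear values, which shrinks weak genes by construction, Cebpd was at -0.13 (MDP genotypes), -0.20 (GMP genotypes), -0.28 (Trib1-/- cell types) and -0.35 (wild-type cell types), and Cebpg at 0.36 for the MDP genotypes with a change of 0.50. The granulocytic medians were -0.51 and -0.58, the monocytic median in Trib1-/- was 0.25, the member counts between cell types were 0 and 1, and the gene counts were 3, 16, 129 and 368 in the same order. At 1.5-fold the gene counts were 1721, 2151, 2664 and 4742, and 2 members each were apart for both genotype comparisons and for the cell types in Trib1-/-. At 4-fold the gene counts were 7, 7, 100 and 188, with 0 members between cell types. Cebpd is limited by signal close to background, with both MDP values below the floor. The Cebpg difference between the MDP genotypes was 0.78 after cyclic loess and 0.45 with probe sets averaged. Raising values could not change it (0.80), because its main probe set lay above the floor on every array. Causes of the other shifts were not tested.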

Other observations

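The C/EBP pattern TTNNGNAA was present in the promoter window for 10 of 16 granulocytic targets with a RefSeq window, 10 of 11 monocytic and inflammatory targets, 2 of 15 bZIP partners and relatives, 1 of 9 genes of the Trib and COP1 ligase list and 4 of 11 regulators and antagonists, beside 44.1% of 27025 genes. The motif TTGCG was present for 2, 5, 6, 1 and 6 of the same genes in the same order, beside 19.5% of all genes, and the granulocytic share was 12.5%. The motif CCAAT was present for 6, 3, 9, 3 and 5 of the same genes in the same order, beside 41.1% of all genes. The lists hold genes chosen as C/EBP targets, the base composition of the windows was not matched, and no test was made.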
